A study of Mus musculus with 4 samples.

Results

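The genes described here are the MiT-TFE transcription factor genes Tfeb, Tfe3 and Mitf, Gpnmb, the folliculin complex genes Flcn, Fnip1 and Fnip2, and the Rag GTPase genes Rraga, Rragc and Rragd. They were taken by gene symbol from the deposited count table, which holds 54532 genes, and all 10 were found once each. All 10 were abundant enough to test, among 13922 genes tested. RNA came from LL2 cells, mouse tumour cells derived from the Lewis lung carcinoma. In the first group the cells received lactic acid, added to the medium to 20 mM, for 24 h, and in the second they received the same volume of PBS for 24 h. Each group gave 2 libraries that the labels call biological replicates, without saying whether they were separate cultures, so p-values measure the spread between these libraries, which may be technical. One line under one set of culture conditions was studied, and no other genotype or treatment is given for either group.

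Rag GTPases work as pairs, RagA or RagB with RagC or RagD, and carry the kinase complex mTORC1 to the lysosome when amino acids are plentiful. Folliculin, together with FNIP1 or FNIP2, switches RagC and RagD to the form that presents MiT-TFE proteins to mTORC1. Phosphorylated MiT-TFE proteins stay in the cytoplasm, and once dephosphorylated they enter the nucleus and bind E-box sequences at genes of lysosomes and autophagy. Among the genes described as their targets are Flcn, Fnip2, Rragd and Gpnmb, so the pathway acts back on its own regulators. These libraries measure mRNA and hold no information on where the proteins are or on their phosphorylation.

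The libraries held 15501006 and 16331584 counts with lactic acid and 16164237 and 17409990 with PBS, and a floor of 3 counts equals 0.175 to 0.191 CPM (counts per TMM-scaled library size, in the usual CPM unit). Such limits reflect counting error alone, and they may be too narrow, because reads copied by PCR are counted as if they were separate molecules. Libraries of a group correlated at 0.992 with lactic acid and 0.993 with PBS, against 0.977 between groups (Pearson's r of log2 CPM, taken over genes, which do not count as replicates). Of the markers listed for the line, the mesenchymal genes Vim and Fn1 and the keratin genes Krt8 and Krt18 were present, while the epithelial adhesion genes Cdh1 and Epcam had at most 2 counts in any library.

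Of the 10 genes, 2 were higher and 6 lower with lactic acid in the quasi-likelihood test of edgeR, with p-values adjusted by Benjamini-Hochberg and a threshold of 0.05, and 2 did not pass. Across all genes tested 49.0% passed, 24.7% higher and 24.3% lower, so calls were common and the count of members is read against that. DESeq2's Wald test called 2 members higher and 5 lower, against 34.1% of all genes tested in either direction. Rragd, which encodes RagD, and Mitf rose, and Gpnmb, Flcn, Rragc, Fnip1, Rraga and Tfe3 fell. Fold changes ran from 2.21-fold higher for Rragd to 1.99-fold lower for Gpnmb. The members had a median log2 fold change of -0.23 against 0.01 for all genes tested, and a median size of change of 0.54 against 0.26. The members were chosen with earlier results of these data known, so these values are not those of an unselected set. For 9 of the 10 the groups did not overlap, as for 72.3% of all genes tested. In bulk RNA a change in the number of cells that express a gene and a change in RNA per cell cannot be told apart.

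**Figure D1:**
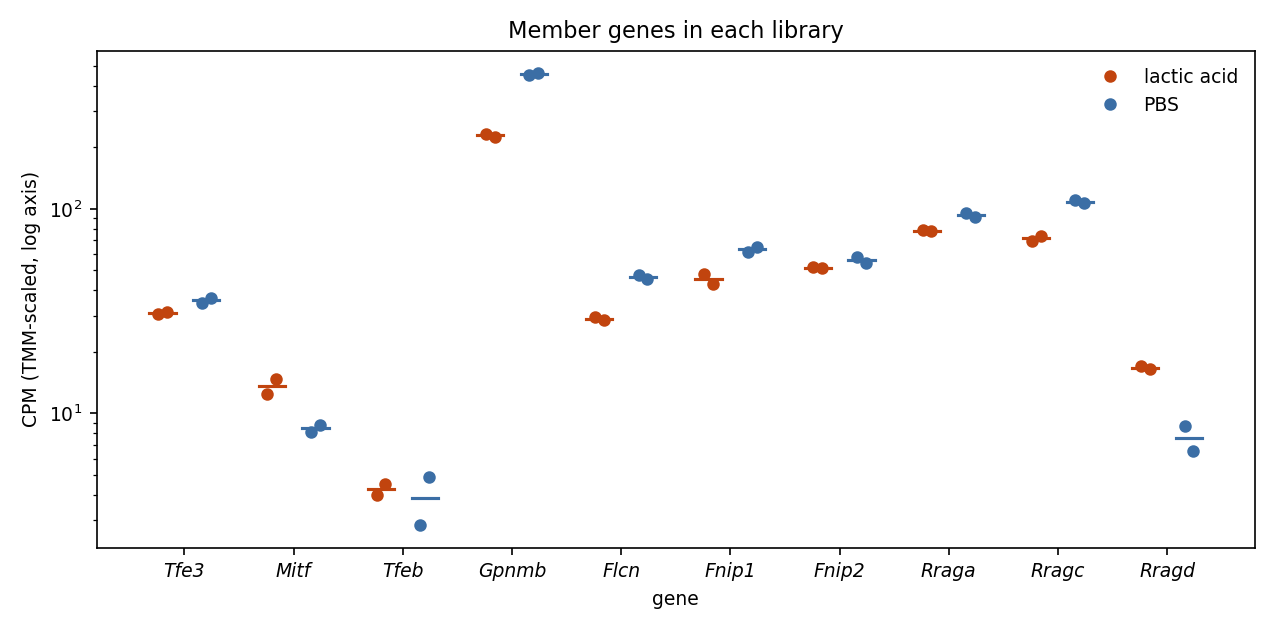
CPM of the 10 genes in each library on a log axis, with lactic acid (orange) left of PBS (blue); points are libraries and short lines are means of 2. Gpnmb lies at 225 to 233 CPM with lactic acid and 453 to 459 with PBS, Rragd and Mitf are higher with lactic acid, and the Tfeb groups overlap.

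Among the Rag genes, the partners of the second position moved in opposite directions. Rragd (chromosome 4, 32983037 to 33022180, plus strand, GRCm38, protein-coding) had 268 and 271 counts with lactic acid and 137 and 112 with PBS, or 17.03 and 16.4 CPM against 8.63 and 6.54 CPM. Both lactic acid libraries were well above both PBS libraries, and the PBS libraries differed more from each other than did the lactic acid ones. The change was 2.21-fold (log2 fold change 1.14, SE 0.14, edgeR adjusted p = 5.30e-10), and 534 of the 13922 genes tested rose further.

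Rragc (chromosome 4, 123917446 to 123936997, plus strand), which encodes RagC, had 69.3 and 73.9 CPM with lactic acid and 110 and 106 CPM with PBS. The groups did not overlap, and Rragc fell by 0.60 on the log2 scale (SE 0.05, edgeR adjusted p = 6.88e-16, 1.51-fold lower). A transcript gene on the other strand, 4930535I16Rik, shares exon bases with Rragc but held 0.017% as many reads.

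Per length, Rragc was the more abundant of the pair in every library. Its deposited FPKM (reads scaled to gene length and to library size) were 20.6 and 21.9 with lactic acid and 33.0 and 31.8 with PBS, against Rragd FPKM of 3.26 and 3.14 with lactic acid and 1.67 and 1.26 with PBS. Rragd made up 13.7% and 12.5% of the FPKM of the pair with lactic acid and 4.81% and 3.81% with PBS. The ratio of Rragc to Rragd was thus 6.65 ± 0.48 with lactic acid and 22.5 ± 3.85 with PBS (SD, n = 2 each), and the sum of the pair was 23.8 and 25.1 FPKM with lactic acid against 34.7 and 33.1 FPKM with PBS. For a single value such as this ratio, 2 libraries against 2 can reach no two-sided exact permutation p below 0.333, so no test is given for it.

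The promoter windows of both genes are shown because these paralogs changed in opposite directions and only one window holds an E-box. The windows are RefSeq's, on GRCm38.p6, plus strand, from 250 bases before to 50 bases after the annotated start, at chr4:123917183-123917482 for Rragc and chr4:32982748-32983047 for Rragd. Capitals mark an E-box, CACGTG, with an adjoining A where it reads CACGTGA, the reverse complement of the 7-letter form TCACGTG.
Rragc: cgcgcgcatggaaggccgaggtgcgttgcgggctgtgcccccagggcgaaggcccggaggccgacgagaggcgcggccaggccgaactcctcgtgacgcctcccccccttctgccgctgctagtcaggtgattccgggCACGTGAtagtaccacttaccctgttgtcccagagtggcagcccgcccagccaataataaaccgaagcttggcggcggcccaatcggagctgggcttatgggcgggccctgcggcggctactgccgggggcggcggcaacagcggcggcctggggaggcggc
Rragd: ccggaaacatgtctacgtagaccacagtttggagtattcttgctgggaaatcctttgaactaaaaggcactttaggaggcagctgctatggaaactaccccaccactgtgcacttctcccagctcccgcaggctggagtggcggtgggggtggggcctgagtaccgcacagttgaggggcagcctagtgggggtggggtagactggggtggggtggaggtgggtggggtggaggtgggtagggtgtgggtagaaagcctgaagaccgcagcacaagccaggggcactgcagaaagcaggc
The E-box of Rragc begins 112 bases before the start, and the Rragd window holds none, which says only that these letters are not within it.

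Rraga (chromosome 4, 86575668 to 86577285, plus strand), which encodes RagA, was the most abundant of the Rag genes per length. It stood at 78.7 and 77.5 CPM with lactic acid and 94.95 and 91.6 CPM with PBS, with no overlap, and fell by 0.26 on the log2 scale (SE 0.05, edgeR adjusted p = 1.71e-05). Rragb, which encodes the alternative first partner RagB, was nearly absent, with 15 and 16 counts with lactic acid and 21 and 20 with PBS. Its difference did not pass (log2 fold change -0.37, SE 0.45, edgeR adjusted p = 0.524), and Rraga held 99.0% to 99.1% of the FPKM of these partners in all 4 libraries.

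Flcn, the folliculin gene (chromosome 11, 59791408 to 59810016, minus strand), and Fnip1 both fell, while Fnip2 did not pass. Flcn had 29.5 and 28.5 CPM with lactic acid and 47.4 and 45.6 CPM with PBS. The groups were far apart relative to the spread within them, and Flcn was 1.61-fold lower (log2 fold change -0.68, SE 0.08, edgeR adjusted p = 2.42e-11).

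Fnip1 (chromosome 11, 54438199 to 54518235, plus strand) encodes one of the proteins that hold folliculin in its active complex. It had 48.0 and 43.0 CPM with lactic acid and 61.2 and 65.2 CPM with PBS, and it was 1.39-fold lower (log2 fold change -0.48, SE 0.07, edgeR adjusted p = 8.99e-09). Its paralog Fnip2 (chromosome 3, 79455974 to 79567796, minus strand) had 51.9 and 51.1 CPM with lactic acid and 58.2 and 54.1 CPM with PBS. The groups did not overlap, but the difference did not pass (log2 fold change -0.12, 95% interval -0.25 to 0.003, edgeR adjusted p = 0.102). Without PBS replicate 2 it did (edgeR adjusted p = 0.0383), and over the alternatives the adjusted p ran between 0.0383 and 0.466.

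Per length the FNIP genes were close to each other. Fnip1 made up 52.1% and 49.7% of their summed FPKM with lactic acid and 55.3% and 58.6% with PBS. The ratio of Fnip1 to Fnip2 was 1.04 ± 0.07 with lactic acid and 1.33 ± 0.13 with PBS (SD, n = 2 each).

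The windows of the FNIP genes are given because, of these paralogs, Fnip1 passed the test and Fnip2 did not, and only one window holds an E-box, marked as above. Fnip2 was lower too, and the changes of Fnip1 and Fnip2 were not compared with each other by a test. Fnip1 lies at chr11:54437929-54438228 on the plus strand and Fnip2 at chr3:79567630-79567929 on the minus strand.
Fnip1: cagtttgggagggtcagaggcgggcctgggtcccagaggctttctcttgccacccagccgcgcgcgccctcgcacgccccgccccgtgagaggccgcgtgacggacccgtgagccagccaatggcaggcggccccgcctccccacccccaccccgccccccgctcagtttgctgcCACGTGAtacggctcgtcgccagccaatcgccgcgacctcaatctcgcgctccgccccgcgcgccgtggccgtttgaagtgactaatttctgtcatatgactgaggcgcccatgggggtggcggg
Fnip2: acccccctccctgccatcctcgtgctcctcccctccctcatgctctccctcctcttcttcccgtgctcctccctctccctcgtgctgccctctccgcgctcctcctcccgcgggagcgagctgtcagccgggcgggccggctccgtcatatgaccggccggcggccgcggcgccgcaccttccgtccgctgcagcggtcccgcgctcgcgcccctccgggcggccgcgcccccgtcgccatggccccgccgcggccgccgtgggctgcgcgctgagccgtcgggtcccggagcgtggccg
In Fnip1 the E-box begins 75 bases before the start, again in the form CACGTGA, and the Fnip2 window has none. Searched on both strands, CACGTG was found in the windows of 2 of the 10 members, Rragc and Fnip1, and in 11.7% of the 9778 tested genes that have a window. TCACGTG, which contains it, was in the same 2 and in 7.02% of those genes. Neither the 8-letter palindrome TCACGTGA (2.24% of those genes) nor the M-box core TCATGTG (2.63%) was in any of the 15 windows of the members, some of which have several annotated starts. A match is a run of letters and not a measured binding site. Both members with one were lower, as were Gpnmb, Flcn, Rraga and Tfe3 without one. The other members without one were higher or uncalled, and a link between match and change was not tested.

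**Figure D2:**
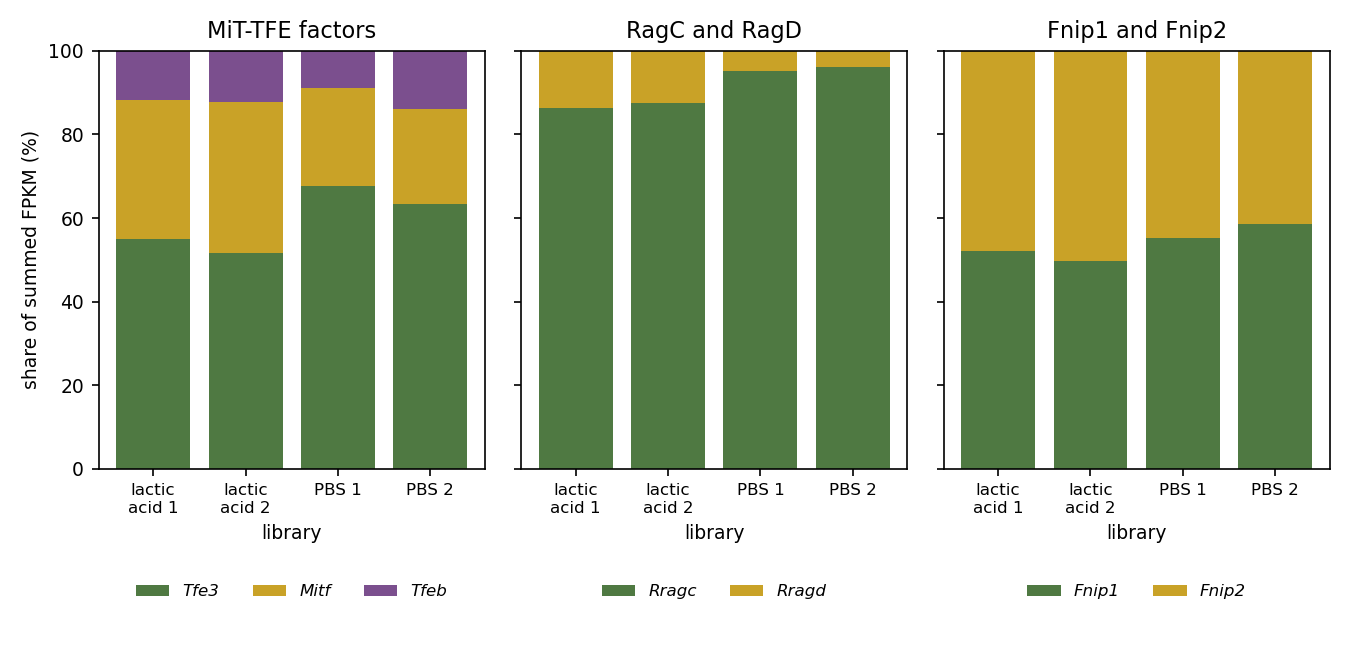
Share of the summed deposited FPKM held by each gene within the MiT-TFE factors, the RagC and RagD genes and the FNIP genes, 1 bar per library, with lactic acid left of PBS. Mitf holds 33.3% and 36.2% with lactic acid against 23.4% and 22.7% with PBS, and Rragd 13.7% and 12.5% against 4.81% and 3.81%.

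The MiT-TFE factors differed in both level and change. Tfe3 (chromosome X, 7762560 to 7775202, plus strand), which encodes a factor found in most tissues, had 30.7 and 31.3 CPM with lactic acid and 34.8 and 36.8 CPM with PBS. The groups did not overlap, and Tfe3 fell by 0.21 on the log2 scale (SE 0.08, edgeR adjusted p = 0.0258). This call did not hold in 7 of 13 alternatives, and over all 13 the adjusted p ran between 0.0211 and 0.158. It was lost without lactic acid replicate 1 (edgeR adjusted p = 0.115), lactic acid replicate 2 (0.0799) and PBS replicate 2 (0.156).

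Mitf (chromosome 6, 97807052 to 98021349, plus strand), best known as the regulator of the melanocyte lineage, had 196 and 243 counts with lactic acid and 128 and 151 with PBS, or 12.5 and 14.7 CPM against 8.06 and 8.81 CPM. Both lactic acid libraries were above both PBS libraries, and Mitf rose 1.61-fold (log2 fold change 0.68, SE 0.14, edgeR adjusted p = 5.80e-05). The table counts reads per gene, so which of the annotated Mitf starts they came from is not known.

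Tfeb (chromosome 17, 47737030 to 47792419, plus strand), the factor most often studied in lysosome formation, was the least abundant of the members. It had 63 and 75 counts with lactic acid and 45 and 84 with PBS, or 4.003 and 4.53 CPM against 2.84 and 4.90 CPM. The PBS libraries lay on both sides of the lactic acid ones, and the difference did not pass (log2 fold change 0.13, SE 0.24, edgeR adjusted p = 0.679). The 95% interval of its fold change, 0.787 to 1.53, holds changes that were not detectable with these libraries. Without PBS replicate 1 the sign turned (log2 fold change -0.20, adjusted p = 0.583).

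Per length, Tfe3 led the family in each library, followed by Mitf and Tfeb, and Tfec, the remaining family gene, had 0 counts in all 4. A count of 0 allows up to 3 counts a library, or 0.175 to 0.191 CPM. Tfe3 made up 55.0% and 51.6% of the family FPKM with lactic acid and 67.6% and 63.4% with PBS, and Mitf 33.3% and 36.2% against 23.4% and 22.7%. The share of Tfeb was 11.7% and 12.2% with lactic acid and 9.0% and 13.8% with PBS, which overlapped. Summed over the family, FPKM were 5.98 and 6.49 with lactic acid and 5.56 and 6.25 with PBS, so the sums overlapped too. FPKM divide by the whole gene length of the table, 9261 bases for Tfe3, 6196 for Mitf and 5669 for Tfeb, and would shift between these genes if shorter transcripts were used.

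Gpnmb (chromosome 6, 49036546 to 49070929, plus strand) encodes a transmembrane glycoprotein of melanosomes and lysosomes that is made by melanocytes, macrophages and osteoclasts. It had 3659 and 3727 counts with lactic acid and 7193 and 7870 with PBS, or 233 and 225 CPM against 453 and 459 CPM. Gpnmb was 1.99-fold lower, with little spread in either group (log2 fold change -0.996, SE 0.03, edgeR adjusted p = 2.77e-34, the smallest p among the members), and 321 of the 13922 genes tested fell further. By FPKM it was the most abundant member with PBS (70.0 ± 0.62) and second to Rraga with lactic acid (34.8 ± 0.77 against 47.9 ± 0.51 FPKM for Rraga, SD, n = 2 each).

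Since Mitf and Gpnmb are also genes of melanocytes, macrophages and osteoclasts, markers of those cells were read in the same libraries. The 8 melanocyte markers summed to 12 and 5 counts with lactic acid and 8 and 11 with PBS, with Tyr, Dct and Oca2 at 0 in every library and none abundant enough to test. Macrophage and osteoclast markers, 12 genes with 5 tested, summed to 25.2 and 27.3 CPM with lactic acid and 18.2 and 17.8 CPM with PBS. Adgre1, Itgam and Dcstamp were at 0 throughout, Ptprc had 1 count in 1 PBS library, and Csf1r had 1 and 0 counts with lactic acid and 3 and 5 with PBS. Of the 5 tested, Cd14, Cd68 and Mrc1 rose (1.47-fold, 1.85-fold and 2.49-fold), and 24.7% of all genes tested were called higher. The value of Mrc1 rests on few counts, 23 and 51 with lactic acid and 18 and 12 with PBS. Lyz2 and Ctsk did not pass, while Gpnmb was lower. The part of such cells in the changes of Mitf and Gpnmb was not tested.

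**Figure D3:**
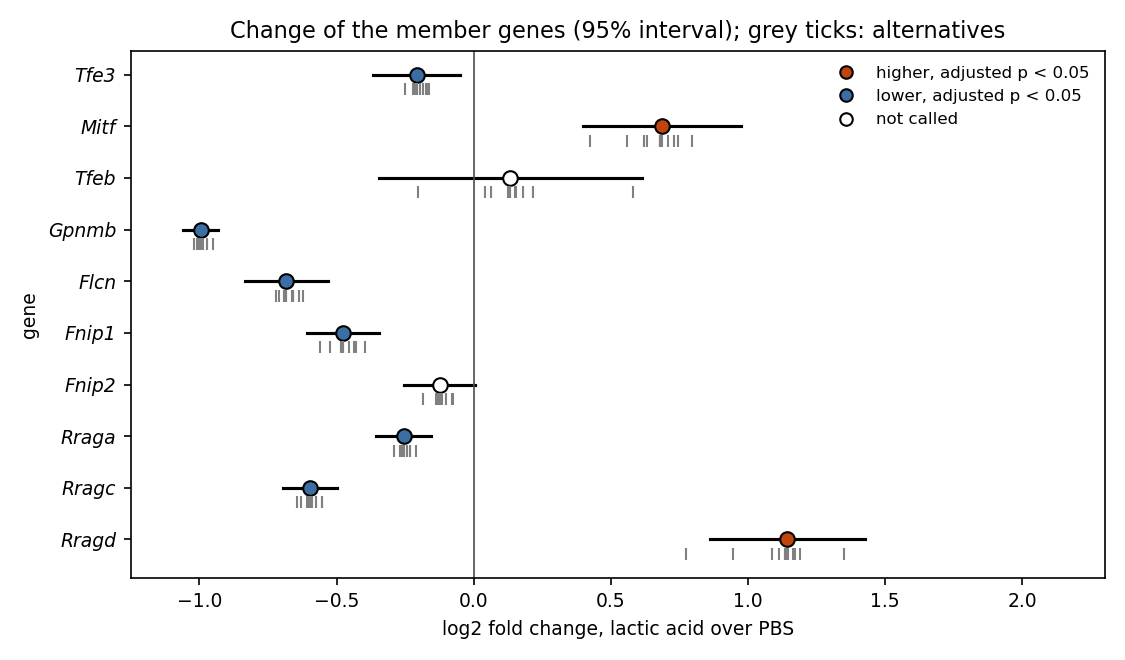
Log2 fold change of each gene, lactic acid over PBS, with its 95% interval from the edgeR fit of 4 libraries; filled points passed at an adjusted p below 0.05, and grey ticks below each are the values under the alternatives. Rragd (1.14) and Mitf (0.68) lie right of 0 and Gpnmb (-0.996) farthest left, and the ticks of Tfeb alone fall on both sides of 0.

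Ordered by FPKM with lactic acid, the genes ran Rraga (47.9), Gpnmb (34.8), Rragc (21.2), Flcn (6.64), Fnip1 (6.33), Fnip2 (6.10), Tfe3 (3.32), Rragd (3.20), Mitf (2.17) and Tfeb (0.746). With PBS the order was Gpnmb (70.0), Rraga (57.6), Rragc (32.4), Flcn (10.8), Fnip1 (8.88), Fnip2 (6.71), Tfe3 (3.86), Rragd (1.47), Mitf (1.36) and Tfeb (0.682). Neighbours whose libraries overlapped were Flcn with Fnip1 and Fnip1 with Fnip2 under lactic acid, and Rragd with Mitf under PBS. Tfe3 and Rragd lay close together with lactic acid without overlapping, at 3.28 and 3.35 FPKM for Tfe3 and 3.26 and 3.14 FPKM for Rragd.

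The genes most like Gpnmb, which had the smallest p, were sought among 8511 other tested genes with a mean of at least 10 CPM, by the distance between log2 CPM of the 4 libraries centred on the PBS mean. The 3 nearest were Pdgfrb, a growth factor receptor (distance 0.04), Pcolce, an enhancer of procollagen processing (0.06), and Polr2a, the large subunit of RNA polymerase II (0.06). Pcolce, for example, had 340 and 330 CPM with lactic acid and 689 and 681 CPM with PBS. With 4 libraries in 2 groups, likeness of this kind mostly means a fold change of the same size.

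The rest of the pathway was described through 5 gene lists with 69 genes in the table, of which 67 were tested, 15 higher and 33 lower with lactic acid. The share called was 71.6%, against 49.0% of all genes tested, and the median log2 fold change was -0.13 against 0.01. The lists were chosen with earlier results of these data known, so these shares are not those of an unselected set. Of the 67 genes, DESeq2's Wald test called 8 higher and 24 lower, against 34.1% of all genes tested in either direction. Over all genes tested 24.7% were higher and 24.3% lower by edgeR, and the share called in each list is given to be read against these and against the 49.0%.

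Of 7 Ragulator and Rag partner genes, 1 was higher, 2 lower and 4 did not pass (42.9% called, median log2 fold change -0.20). Lamtor1, which encodes the subunit that anchors the Rag scaffold to the lysosomal membrane, had 42.4 and 44.9 CPM with lactic acid and 69.7 and 66.9 CPM with PBS. It fell by 0.64 on the log2 scale (SE 0.06, edgeR adjusted p = 3.42e-13). Lamtor3, another scaffold subunit, was lower by a smaller amount (-0.20, adjusted p = 0.0241), a call that 4 of 13 alternatives did not make, including those without lactic acid replicate 1 (0.150) or without PBS replicate 1 (0.195). Slc38a9, the lysosomal arginine sensor, was higher (log2 fold change 0.30, adjusted p = 0.0220), a call that 6 of 13 did not make, including those without lactic acid replicate 1 (0.0603), lactic acid replicate 2 (0.0927) and PBS replicate 2 (0.181). Lamtor4 had a log2 fold change of -0.24 and did not pass (edgeR adjusted p = 0.133). Lamtor1 shares 600 exon bases with Lrrc51 on the other strand, which held 1.75% as many reads.

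The 16 tested genes of GATOR, KICSTOR and the amino acid sensors, which act on the Rags from upstream, were 6 higher, 5 lower and 5 not past the threshold (68.8% called, median log2 fold change 0.07). Castor1, which encodes a cytosolic arginine sensor, and its paralog Castor2 both rose. Castor2 stood at 113 and 115 CPM with lactic acid and 78.9 and 75.4 CPM with PBS (1.48-fold), and Castor1 at 31.3 and 30.9 CPM against 22.9 and 21.7 CPM (1.40-fold). Seh1l, a subunit that GATOR2 shares with the nuclear pore, fell by 0.36 on the log2 scale.

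Among 9 genes of mTORC1 and the TSC complex, 2 were higher, 4 lower and 3 did not pass (66.7% called, median log2 fold change -0.09). Rheb, the small GTPase that activates mTORC1, rose 1.28-fold, at 93.8 and 89.5 CPM with lactic acid and 75.0 and 68.7 CPM with PBS. Deptor, an inhibitory subunit of mTOR complexes, rose 1.27-fold. Tsc1 fell by 0.31 and Tsc2 fell by 0.52 on the log2 scale, and both encode subunits of the complex that holds Rheb inactive. Tsc2 shares 693 exon bases with Pkd1 on the other strand, which held more reads than Tsc2 itself (173% as many), so its value is uncertain.

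All 14 genes listed for the location of MiT-TFE proteins had negative log2 fold changes and 12 were called lower, with none higher (median -0.21, range -0.46 to -0.05). That is 85.7% lower, against 24.3% of all genes tested, of which 49.3% had a negative log2 fold change. These 14 had means of 36.0 to 777 CPM with lactic acid, and the comparison with all genes tested is not matched for abundance. The list was also chosen with earlier results of these data known, so its shares are not those of an unselected set. The median size of change was 0.21 on the log2 scale, against 0.26 over all genes tested. They encode calcineurin subunits, which dephosphorylate TFEB, kinases that phosphorylate it, 14-3-3 proteins that hold it in the cytoplasm, and its nuclear exporter. Xpo1, the exporter gene, had the largest change, at 399 and 387 CPM with lactic acid and 552 and 530 CPM with PBS (1.38-fold lower). The 14-3-3 genes Ywhaz, Ywhab and Ywhae fell by 0.34, 0.27 and 0.23 on the log2 scale. Ywhaz has a copy, Gm4202, near-identical over 733 bases, which had a mean of 118.5 counts a library. The log2 fold changes of all 14 were negative in each of the 13 alternatives as well. Without any scaling factor, though, the smallest was near 0 and 8 were called lower, where 2852 of the 13922 genes tested were lower. DESeq2 also called 8 of the list lower, and 2494 of all genes tested.

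Lysosomal and autophagy genes described as targets of TFEB or TFE3 moved both ways. Of 23 listed, 21 were tested, 6 were higher, 10 lower and 5 did not pass (76.2% called), with a median log2 fold change of -0.13. Lamp1, an abundant protein of the lysosomal membrane, had 299 and 283 CPM with lactic acid and 517 and 513 CPM with PBS (1.77-fold lower), and Tpp1, a lysosomal peptidase, was 1.41-fold lower. Wipi1 and Gabarapl1, which act in the formation of autophagosomes, rose 1.53-fold and 1.497-fold. Wipi1 stood at 83.1 and 93.2 CPM with lactic acid and 54.6 and 60.9 CPM with PBS. Gabarapl1 shares 570 exon bases with 1700101I11Rik on the other strand, which held 0.177% as many reads.

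**Figure D4:**
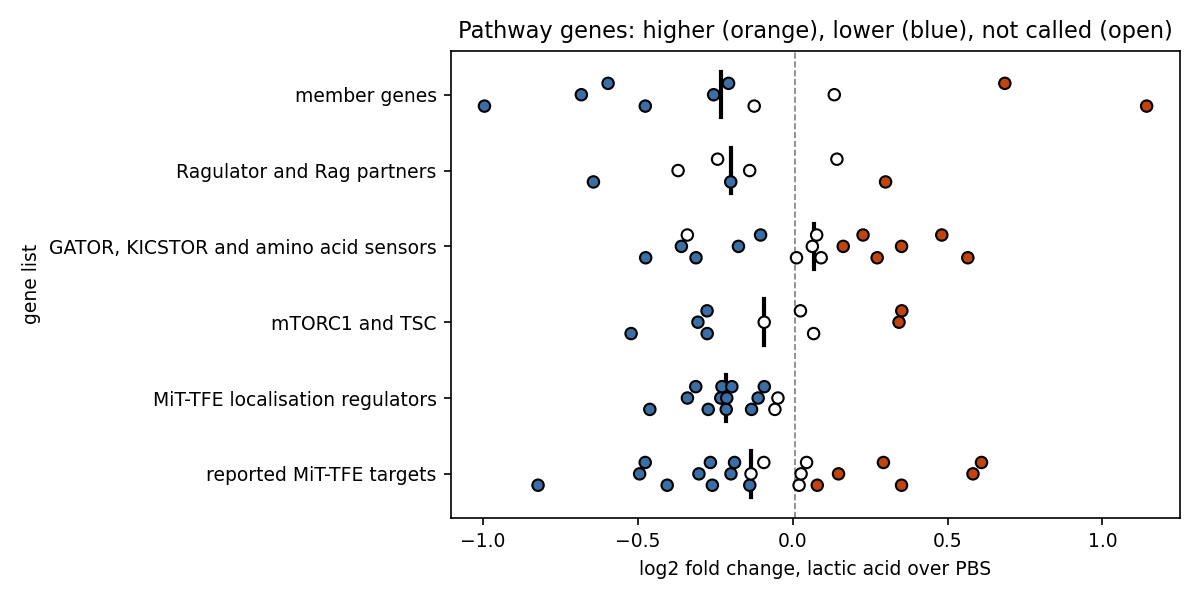
Log2 fold change, lactic acid over PBS, of each tested gene in the member set and the 5 pathway lists; orange points are called higher, blue lower and open ones not called, black bars are list medians and the dashed line is the median of all genes tested (0.01). The genes of MiT-TFE localisation all lie left of 0, and the other lists lie on both sides.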

How the data were processed

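Polyadenylated RNA of 4 LL2 libraries was sequenced in pairs of 150 bases with a NEBNext Ultra kit, per the labels' protocols; that kit does not mark strand. The deposited table gives raw read counts per gene, and a second deposited table gives FPKM of the authors for the same genes, which equal count over gene length times 1 constant per library. The build GRCm38.p6 (mm10) and the tools DESeq2 1.16.1, StringTie 1.3.3b, featureCounts 1.5.0-p3, HISAT2 2.0.5 and CASAVA stand in the submitters' processing notes, without a role for each. How strand, multi-mapping reads and overlapping genes were treated is not given in the sources used here.

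Counts were fitted with edgeR 4.0.16 in R 4.3.3 (filterByExpr, minimum count 10 and total 15, TMM, robust quasi-likelihood, group as the only term), two-sided, and p-values were adjusted by Benjamini-Hochberg over the 13922 genes tested, with a threshold of 0.05. Alternatives used DESeq2 1.42.0 and limma 3.58.1 (log2 of FPKM + 0.1 or + 1), other or no scaling factors, no or a stricter filter (10 CPM), non-robust dispersion, a replicate block, and fits without each library in turn. The procedure was tested on simulated counts. Genes named are the members, the 4 of each pathway list with the smallest p, Tfec and Rragb, and the 3 nearest to the member with the smallest p; 1 gene this rule took is not reported here. Marker genes, 4930535I16Rik and others outside this rule were named after their values were seen. Overlaps were read from GENCODE M21 and copies by blastn 2.17.0 (at least 98% identity over 300 bases). The members and lists were chosen with earlier results of these data known.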

Additional observations from a re-analysis of the deposited data

How the results depend on the processing

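Of the 8 members called, 7 kept direction and call in all 13 alternatives, the exception being Tfe3, and Fnip2 passed in 1, without PBS replicate 2 (log2 fold change -0.19). In the fits that leave out 1 library, the log2 fold change of Tfeb ran from -0.20 to 0.58, negative without PBS replicate 1. The cause was not tested. DESeq2's Wald test called 2251 genes higher over all genes, against 3445 in the edgeR test, and 8 pathway genes higher, against 15, and the cause was not tested. Every other count of calls over all genes, members and the pooled pathway genes stayed within 1.5 times. Within single lists some counts moved more. By DESeq2's Wald test, the genes of GATOR, KICSTOR and the sensors were 3 higher and 3 lower, against 6 and 5 by edgeR. Target genes were 3 higher and 9 lower, against 6 and 10, and Ragulator and Rag partners 0 and 1, against 1 and 2. The mTORC1 and localisation lists stayed within 1.5 times. The replicate numbers do not pair the libraries by any label, and deviations of same-numbered libraries from their group means correlated at 0.01. With the replicate number as a block, 2 members were higher and 6 lower, as without it, and 3459 and 3393 of all genes. Under the stricter filter Tfeb was not fitted. Counts were few for Tfeb, with 45 to 84 a library, and for Rragb, with 15 to 21. The PBS libraries of Tfeb also differed from each other, with 45 and 84 counts, and the part of depth in its result was not tested. The shares within families are the same from counts over gene length.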

Other observations

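Rragb, the sparsely expressed alternative to Rraga, has the largest number of E-boxes among the Rag, folliculin and MiT-TFE genes compared here, chosen after the sequences were seen. Its RefSeq window (chrX:153139708-153140007, plus strand, GRCm38.p6) holds 3 copies of CACGTG, each as CACGTGA, beginning 127, 36 and 3 bases before the annotated start. The stretches around them are shown with the motif in capitals.
Rragb -127: gagagcccgggcCACGTGAtggcgggtggc
Rragb -36: aaagggtagcggCACGTGAcaggccctggg
Rragb -3: acggcaggttccCACGTGAtcctggcctgc
Rraga, which held 99.0% to 99.1% of the FPKM of this pair, has no CACGTG in its window. The levels of Rragb, 0.953 and 0.967 CPM with lactic acid and 1.32 and 1.17 CPM with PBS, lay within a few counts of each other, and the difference did not pass the edgeR test (adjusted p = 0.524).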
